A study of Mus musculus with 18 samples.

Results

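Copying the genome once per division takes a fixed set of proteins, and the RNA levels of 39 genes that encode them were followed through mouse liver development. The genes were listed by name and matched to probe sets that the array annotation assigns to a single gene symbol. Of the 39 genes 38 had such a probe set, 81 probe sets in all, out of 18193 named genes and 45101 probe sets on the array. Chaf1a, a subunit of chromatin assembly factor 1, was not analysed here. All 38 genes passed the filter on low values in both fits. Each gene was read on its brightest probe set, and intensities are in the deposited linear units.

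All samples came from CD-1 mice, an outbred strain, with no genetic change and no treatment named in the group labels. Embryonic liver was sampled once a day between 10.5 and 14.5 dpc, days post conception, with a last sampling at 16.5 dpc and 2 arrays for each of these 6 stages, and adult liver came from 10-week-old females labelled as normal baseline liver, also on 2 arrays. What was left of the embryo once the liver was removed (the rest of the embryo) had 1 array at each of 4 stages, daily between 10.5 and 12.5 dpc and at 14.5 dpc. Each embryonic sample pooled at least 5 embryos, so single animals are not resolved, and a surgical protocol with partial liver resection accompanies the adult samples, although their titles call them normal.

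Before S phase, the origin recognition complex, Cdc6 and Cdt1 load the Mcm2 to Mcm7 helicase on DNA, a step called licensing that geminin (Gmnn) holds back. Cdc45, the GINS complex and Mcm10 then turn the helicase on, primase and polymerase alpha lay down primers, and polymerases delta and epsilon extend them with the sliding clamp Pcna, its loader and the single-strand binding protein RPA. Ribonucleotide reductase, thymidylate synthase, thymidine kinase and dUTPase supply the nucleotides, and many of these genes are known targets of E2F transcription factors. The embryonic liver becomes the main site of red cell production in the course of these stages and its blood cell precursors and hepatoblasts divide, whereas most adult hepatocytes rest outside the cell cycle.

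The promoters of the genes are shown first, and no link between their letters and the RNA levels was tested. RefSeq windows on GRCm38.p6, 250 bases before to 50 bases after the gene start, were found for 32 of the 39 genes; Mcm4, Gins1, Gins2, Prim2, Pole, Tipin and Gmnn had no entry in the table. The windows were searched on both strands for 4 E2F-like words, TTTCCCGC, TTTCGCGC, TTTGCCGC and TTTGGCGC, which can overlap each other. Such a word was present in 12 of the 32 genes, 37.5%, against 704 of 27025 genes with a window, 2.605%. The CCAAT box was present in 19 of the 32, 59.4%, against 41.1% of all genes, and TTTGAA, the letters of the cell cycle element CHR, in 4 of the 32, 12.5%, against 20.2%. A match describes these letters in this window and is not evidence of binding.

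The 250 bases before the start are printed for the helicase subunits Mcm5, Mcm6 and Mcm7 and the loader Cdc6, the genes with the largest differences between adult and embryonic liver among those with an E2F-like word in that stretch. The words of Cdt1 and Mcm3 lie after the start, in bases not printed. They are written 5' to 3' on the strand of the gene, with the E2F-like words in capitals. Mcm5 lies at chr8:75109259-75109508 on the plus strand, Mcm6 at chr1:128359706-128359955 on the minus strand, Cdc6 at chr11:98907901-98908150 on the plus strand and Mcm7 at chr5:138171884-138172133 on the minus strand.
Mcm5: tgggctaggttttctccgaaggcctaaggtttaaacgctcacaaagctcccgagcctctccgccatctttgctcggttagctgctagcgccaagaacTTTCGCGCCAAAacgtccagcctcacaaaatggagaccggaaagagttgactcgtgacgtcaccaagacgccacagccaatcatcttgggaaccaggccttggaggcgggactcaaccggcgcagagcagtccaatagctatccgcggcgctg
Mcm6: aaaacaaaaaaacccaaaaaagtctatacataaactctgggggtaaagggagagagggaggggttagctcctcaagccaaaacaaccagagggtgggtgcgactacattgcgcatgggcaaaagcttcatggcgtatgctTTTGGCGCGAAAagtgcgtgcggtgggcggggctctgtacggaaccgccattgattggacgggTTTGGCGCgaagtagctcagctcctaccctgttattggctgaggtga
Cdc6: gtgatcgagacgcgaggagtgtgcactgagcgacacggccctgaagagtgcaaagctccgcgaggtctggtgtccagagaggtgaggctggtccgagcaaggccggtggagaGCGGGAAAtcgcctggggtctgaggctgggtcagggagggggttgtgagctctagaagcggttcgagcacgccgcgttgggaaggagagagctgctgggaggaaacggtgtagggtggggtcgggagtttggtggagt
Mcm7: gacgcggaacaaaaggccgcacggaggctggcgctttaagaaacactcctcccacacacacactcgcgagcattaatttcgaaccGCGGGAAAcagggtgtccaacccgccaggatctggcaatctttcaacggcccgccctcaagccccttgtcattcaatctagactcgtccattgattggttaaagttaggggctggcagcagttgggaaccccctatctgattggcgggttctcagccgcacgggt
In Mcm5 a word on each strand overlaps to form 1 run whose first base lies 153 bases before the start. Mcm6 has a like overlapping run from 110 bases before the start and a further word at 47 bases. Cdc6 and Mcm7 each hold GCGGGAAA, the reverse complement of TTTCCCGC, in Cdc6 at 138 bases before the start and in Mcm7 farther upstream.

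Facts of the whole series bear on the values. Replicate liver arrays correlated across probe sets with r of 0.948 to 0.980 on log2 intensity. Replicate 1 of 10.5 dpc stood apart in RNA quality, with a Gapdh 3' to 5' ratio of 2.82 against 0.744 to 0.886 on the other liver arrays. The liver and the rest-of-embryo arrays had different forms of values, with 1216 to 1535 values below 0 on each liver array and none on the others, and a 99th percentile of 1325 to 2935 against 5553 to 5953. Summed over 8 hepatocyte marker genes with a probe set, intensity was 46548 to 48969 in adult liver and 42135 to 42493 in liver at 16.5 dpc, against 11902 to 12009 at 10.5 dpc and 2086 to 12772 in the rest of the embryo. Ahsg was at the floor in liver at 10.5 dpc, and Afp in adult liver. Summed heart markers, 10 genes, reached 9810 to 18415 in liver at 10.5 dpc and 1769 to 7149 at 12.5 dpc, against at most 610 at the other liver stages. All p-values measure the spread of these arrays around each fit, which may be partly technical. For the average liver against rest difference that spread includes any change of the difference with stage. For the change per day it includes departures from a straight line. Spread between rest-of-embryo arrays of the same stage was not measured.

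**Figure D1:**
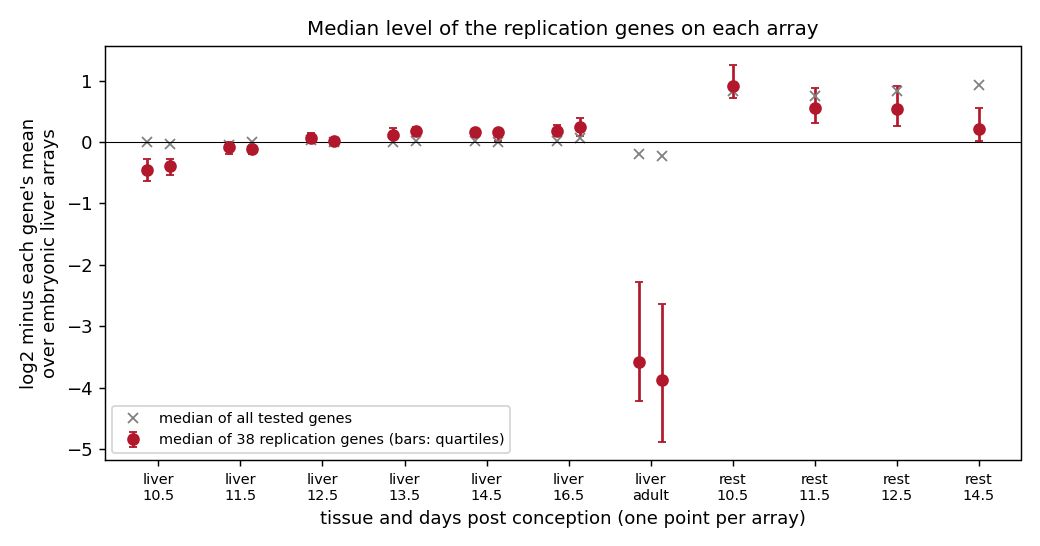
Each point is 1 array, with log2 intensity minus the mean of the same gene over the 12 embryonic liver arrays on the vertical axis, as the median of 38 replication genes with quartile bars and, as crosses, the median of all tested genes. Both adult arrays lie far below the embryonic liver arrays, liver climbs gradually with stage, and the rest of the embryo declines.

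The first comparison asked how the replication genes changed in liver from 10.5 to 16.5 dpc. Their RNA was already abundant at 10.5 dpc and most of it rose modestly, with a median difference of 0.63 log2 against 0.05 for all tested genes. Of the 38 genes 35 were higher at 16.5 dpc by the fitted mean. A call here means a limma adjusted p under 0.05 over all 14125 tested genes and a difference of at least 1 log2. The fit also held the adult pair, so spread between the adult arrays enters each SE and adjusted p. A fit to the embryonic liver arrays alone was added after the data were seen. By that rule 5 of 38 rose and 0 fell, against 10.4% of all tested genes called higher and 6.98% called lower. Without the minimum of 1 log2, 24 rose and 0 fell, against 20.6% and 15.1% of all genes. The share of members called higher was thus near that of all genes. The members that rose past 1 log2 were Cdc6, Prim2, Cdt1, Tk1 and Rrm2. They belong to licensing, priming and nucleotide supply.

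In licensing, 2 of 11 genes were called. Cdc6, which loads the helicase, read 872 and 883 at 16.5 dpc, against 288 and 325 at 10.5 dpc. Both later arrays lay far above both earlier ones (1.52 log2, SE 0.14, limma adjusted p = 1.08e-05), the largest difference of the 38 genes. Cdt1, its partner in loading, rose by 1.20 log2, SE 0.27, limma adjusted p = 0.00559. In the fit to the embryonic liver arrays alone the SE of Cdt1 was 0.11 (limma adjusted p = 3.1e-05), while that of Cdc6 was 0.13. At the other end Orc6, a subunit of the origin recognition complex, read 392 and 388 at 16.5 dpc, against 305 and 381 at 10.5 dpc. Its stages differed by less than the 2 arrays of 10.5 dpc did, and it was not called (0.20 log2, SE 0.14, limma adjusted p = 0.318). On their brightest probe sets the 6 helicase subunits lay between 0.40 log2 for Mcm4 and 0.72 for Mcm7 and none was called. Other probe sets differed in size. A dimmer probe set of Mcm7 read 1615 and 1636 at 16.5 dpc, against 523 and 515 at 10.5 dpc. A dim probe set of Mcm3 overlapped, with 202 and 217 against 229 and 175.

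In origin firing 0 of 4 genes were called, and 2 passed the adjusted p below 1 log2. Mcm10 read 416 and 421 at 16.5 dpc, against 189 and 247 at 10.5 dpc, with no overlap (0.95 log2, SE 0.14, limma adjusted p = 0.000295). Gins1, a GINS subunit, read 376 and 306 at 16.5 dpc, against 322 and 311 at 10.5 dpc. These ranges overlapped (0.10 log2, SE 0.18, limma adjusted p = 0.72), although Gins1 had reached 459 and 468 at 13.5 dpc.

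Among polymerase and primase genes 1 of 8 was called. Prim2, the regulatory subunit of primase, read 519 and 452 at 16.5 dpc, against 164 and 231 at 10.5 dpc, clear of each other (1.31 log2, SE 0.19, limma adjusted p = 0.000313). Pold2, an accessory subunit of polymerase delta, read 410.5 and 359.7 at 16.5 dpc, against 364 and 405 at 10.5 dpc. Its arrays overlapped fully, and the difference was -0.0001 log2 (SE 0.24, or 0.12 with the embryonic liver arrays alone).

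None of the 8 clamp, loader and lagging strand genes was called. Lig1, the ligase that joins Okazaki fragments, read 1169 and 1175 at 16.5 dpc, against 686 and 554 at 10.5 dpc, without overlap but just under 1 log2 (0.93 log2, SE 0.14, limma adjusted p = 0.000318). Fen1, the nuclease that trims their flaps, read 2409.9 and 3205 at 16.5 dpc, against 3949 and 1749.9 at 10.5 dpc. Replicate 1 of 10.5 dpc, the array with the high Gapdh ratio, held its highest value of the series. The other probe set of Fen1 read 1290 and 1157 at 16.5 dpc, against 463 and 571 at 10.5 dpc, without overlap. The mean over both probe sets of Fen1 was 0.66 log2 and not called. The clamp Pcna differed by 0.74 log2, SE 0.13, limma adjusted p = 0.0014, and the loader subunit Rfc3 was the lowest of the 38 genes at -0.43 log2, not called.

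In nucleotide supply 2 of 5 genes were called. Tk1, the cytosolic thymidine kinase, read 876 and 948 at 16.5 dpc, against 332 and 488 at 10.5 dpc, with no overlap (1.18 log2, SE 0.17, limma adjusted p = 0.000334). Rrm2, the regulated subunit of ribonucleotide reductase, read 4054 and 4363 at 16.5 dpc, against 1990.2 and 2001 at 10.5 dpc, both later arrays above both earlier ones (1.08 log2, SE 0.28, limma adjusted p = 0.011). That SE takes in the adult arrays of Rrm2, and with the embryonic liver arrays alone it was 0.08 (limma adjusted p = 1.04e-05). Tyms, thymidylate synthase, read 106 and 137 at 16.5 dpc, against 104 and 110.5 at 10.5 dpc and overlapped (0.17 log2, SE 0.25, limma adjusted p = 0.659). The probe set read for Tyms was dim on every array, and a further one that the annotation shares with the pseudogene Tyms-ps was not used, so values of Tyms are uncertain.

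Of the last 2 genes, Tipin, a fork protection factor, read 1377 and 1393 at 16.5 dpc, against 666 and 803 at 10.5 dpc, without overlap (0.92 log2, SE 0.23, limma adjusted p = 0.00853). The SE of Tipin was 0.11 with the embryonic liver arrays alone (limma adjusted p = 0.000127). Chaf1b, the other listed subunit of chromatin assembly factor 1, read 289 and 271 at 16.5 dpc, against 291 and 294 at 10.5 dpc. It was level across the embryonic stages and not called (-0.06 log2, SE 0.11, limma adjusted p = 0.71).

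The count of 5 became 8 without replicate 2 of 10.5 dpc, and Tk1 dropped under 1 log2, at 0.90, without replicate 1 of 10.5 dpc. For 20 of 21 genes with several tested probe sets all probe sets pointed one way from 10.5 to 16.5 dpc, with Gins2 the exception. Cell markers moved over the same interval. The sum of 9 red cell markers was 28583 to 29005 at 16.5 dpc, against 2927 to 3124 at 10.5 dpc, that of 8 mesenchyme markers 2846 to 2938 against 6448 to 8248, and 5 of 10 heart markers were at the floor at 11.5 dpc. The part of cell makeup in the differences was not tested, and in bulk RNA more cells of a type and more RNA per cell cannot be told apart.

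Against 11.5 dpc, where heart markers were low, 0 of 38 genes were called at 16.5 dpc, while 6.22% of all genes were called higher and 2.54% lower. Without the size minimum 8 rose and 0 fell, against 13.4% and 9.06%. An unadjusted p under 0.05 was reached by 12 of the 38, against 5042 of all 14125 tested genes. The median was 0.36 log2, against 0.08 for all genes.

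The largest step of the median was the first day. Counted from 10.5 dpc, the median of the 38 genes stood 0.31 log2 higher at 11.5 dpc, 0.50 at 12.5, 0.61 at 13.5, 0.57 at 14.5 and 0.63 at 16.5 dpc. By limma, 0 members were called at 11.5 against 10.5 dpc, where 5.66% of all genes were called, 0 at 12.5 against 11.5 dpc (2.95%), 0 at 13.5 against 12.5 dpc (0.0850%), 0 at 14.5 against 13.5 dpc (0.0566%) and 0 at 16.5 against 14.5 dpc (0.0354%). The size minimum of 1 log2 lies above the median gain of the whole interval. Without it 6 members rose and 0 fell at 11.5 against 10.5 dpc, against 7.48% and 6.30% of all genes. In each later step 0 members passed, and the shares of all genes were not counted there in this fit. At an unadjusted p under 0.05 the counts of members were 14, 2, 1, 0 and 0. The counts over all 14125 tested genes were 3977, 2294, 926, 685 and 882. In the first step 5 members were called when replicate 2 of 10.5 dpc was left out, and 2 when that of 11.5 dpc was. The lowest stage was 10.5 dpc for 33 genes, and the highest was 16.5 dpc for 24 genes and 13.5 dpc for 7.

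A moderated F test over the 6 embryonic stages called 17 of 38 genes, against 29.9% of all genes. The adult pair entered that fit and its replicates differed for many members, as shown in the adult comparison. With the 12 embryonic liver arrays alone, a fit added after the data were seen, 28 of 38 were called, against 35.7% of all genes, and 28 also without either adult array. The count was 10 when replicate 1 of 10.5 dpc was left out, 11 when replicate 2 of 13.5 dpc was, and 4 without all arrays of 10.5 and 12.5 dpc. In the embryonic fit 28 members rose at any size from 10.5 to 16.5 dpc and 1, Rfc3, fell (-0.43 log2, limma adjusted p = 0.0193), against 22.6% and 17.6% of all genes, while the count past 1 log2 stayed at 5. In the same fit 18 members rose at any size at 16.5 against 11.5 dpc, against 15.5% of all genes. At 11.5 against 10.5 dpc 18 rose and 1 fell, against 10% and 7.54%. In the later steps 2, 0, 0 and 0 members rose, against 5.94%, 0%, 0.0375% and 0.0075% of all genes. The 2 of 38 were thus near the share of all genes. For the stage test with arrays left out, the shares of all genes called are not given here.

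**Figure D2:**
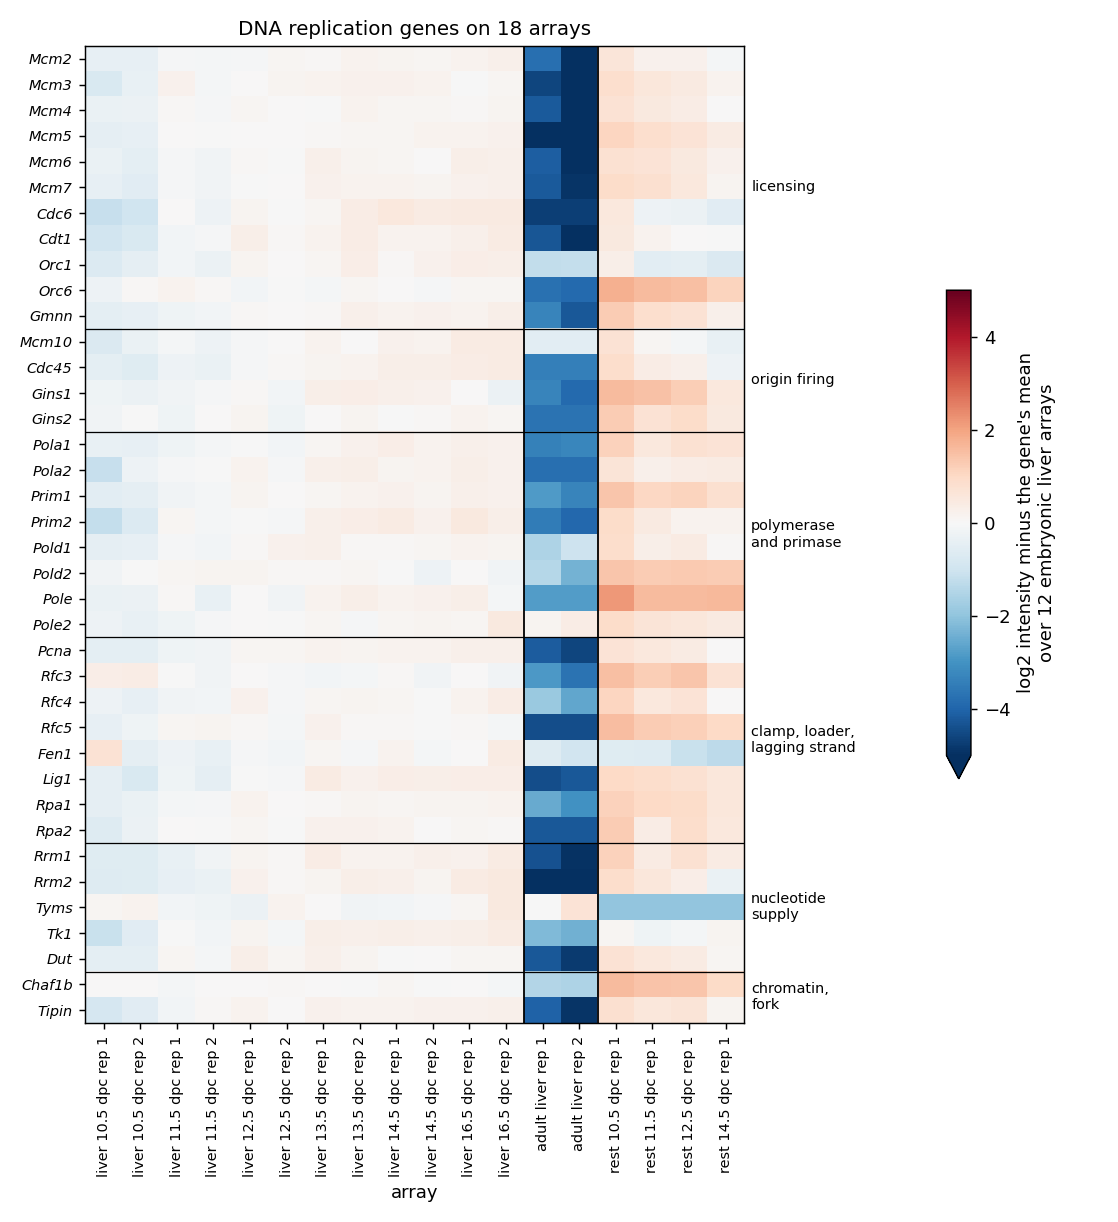
Rows are the 38 replication genes by role and columns the 18 arrays, liver at the left and the rest of the embryo at the right, and colour is log2 intensity minus the mean of the gene over the 12 embryonic liver arrays, with values under -5 drawn in the darkest blue. The adult columns are blue for most genes, Pole2 and Tyms being exceptions.

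The second comparison set adult liver against embryonic liver. Nearly the whole replication gene set was lower in adult liver. By limma 34 of 38 genes fell and 0 rose, against 23.7% of all tested genes called lower and 11.9% called higher. The median difference was -3.72 log2, against -0.21 for all genes. Both adult arrays lay below all 12 embryonic liver arrays for 35 of 38 members, against 32.9% of all tested genes. The median was -4.70 log2 for licensing, -3.50 for origin firing, -2.93 for polymerase and primase, -3.75 for clamp, loader and lagging strand, and -4.50 for nucleotide supply.

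Licensing genes all fell, 11 of 11. Mcm5 read 66.3 and 31.2 in adult liver, while the 12 embryonic liver arrays had a lowest, median and highest value of 1526, 2154 and 2424. The groups were far apart (-5.52 log2, SE 0.19, limma adjusted p = 1.57e-09). Orc1, the largest origin recognition subunit, had the smallest difference in licensing, with 76.7 and 79.6 in adult liver against 114, 193 and 230.4 in embryonic liver. The arrays did not overlap (-1.22 log2, SE 0.11, limma adjusted p = 2.02e-06), but the mean over its probe sets was -0.77 log2 and not called. Cdc6 was at or under the floor of 24.8 on both adult arrays and at least 26.0-fold lower there.

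In origin firing 3 of 4 genes fell. Gins2 read 4.99 and -2.07 in adult liver, against 274, 323 and 361 as the lowest, median and highest embryonic values. Both adult arrays were at or under the floor, so it was at least 12.9-fold lower. Mcm10 read 217 and 221 in adult liver against 189, 321 and 421 in embryonic liver. These values overlapped, and Mcm10 was not called (-0.52 log2, SE 0.10, limma adjusted p = 0.00111). Cdc45 was at least 10.7-fold lower.

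Among polymerase and primase genes 7 of 8 fell. Pola2, the accessory subunit of polymerase alpha, read -48.1 and -31.3 in adult liver against 150.2, 370.1 and 411 in embryonic liver, at least 13.5-fold lower. Pole2, an accessory subunit of polymerase epsilon, read 459 and 546 in adult liver against 325, 422 and 586 in embryonic liver. It overlapped and was not called (0.25 log2, SE 0.11, limma adjusted p = 0.0654). Pole, the catalytic subunit of the same enzyme, was at least 6.90-fold lower, and Pold1, that of polymerase delta, fell by 1.29 log2.

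Of the clamp, loader and lagging strand genes 7 of 8 fell. Rfc5, a subunit of the clamp loader, read 10.7 and 14.2 in adult liver against 407, 561 and 629 in embryonic liver, at least 21.6-fold lower. Rpa2, a subunit of RPA, was at least 18.6-fold lower, and Pcna fell by 4.37 log2. Fen1 was the exception, with 1536 and 1216 in adult liver against 1749.9, 2284 and 3949 in embryonic liver, lower on both arrays but by under 1 log2 (-0.80 log2, SE 0.24, limma adjusted p = 0.0112). Its other probe set read 22.9 and 8.94 in adult liver, and the mean over both, -3.06 log2, was called lower.

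Nucleotide supply held the largest difference of the 38 genes. Rrm2 read 55.3 and 12.7 in adult liver against 1990.2, 3381 and 4363 in embryonic liver (-6.38 log2, SE 0.21, limma adjusted p = 9.44e-10), with 1 of the 2 adult arrays under the floor. Its partner subunit Rrm1 fell by 4.65 log2, Dut, the dUTPase, fell by 4.50 and Tk1 fell by 2.31. Tyms read 95.3 and 155 in adult liver against 79.1, 96.7 and 137 in embryonic liver and was not called (0.32 log2, SE 0.19, limma adjusted p = 0.163).

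Tipin read 71.5 and 38.99 in adult liver against 666, 1334 and 1393 in embryonic liver (-4.48 log2, SE 0.17, limma adjusted p = 3.04e-09). Chaf1b read 104 and 99.2 in adult liver against 271, 289 and 304 in embryonic liver, apart on every array (-1.50 log2, SE 0.08, limma adjusted p = 4.31e-08). The mean over the probe sets of Chaf1b, -0.71 log2, was not called. The 2 adult arrays themselves differed: replicate 1 was above replicate 2 for 28 of 38 members, with a median of 0.40 log2, against 58.8% of all tested genes.

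Both adult arrays were at or under the floor for 7 members and 1 of them for 3 more, Orc6, Prim2 and Rrm2. The 7 genes with both arrays floored show no adult spread, so their SE and adjusted p are too small. Red cell markers summed to 1041 to 1284 in adult liver, against 28583 to 29005 at 16.5 dpc, and their part in the fall was not tested. Against 16.5 dpc alone 35 of 38 genes fell and 0 rose in adult liver, while 22.8% of all genes were called lower and 10.3% higher. Every leave-one-array-out fit kept 34 members called lower against embryonic liver.

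**Figure D3:**
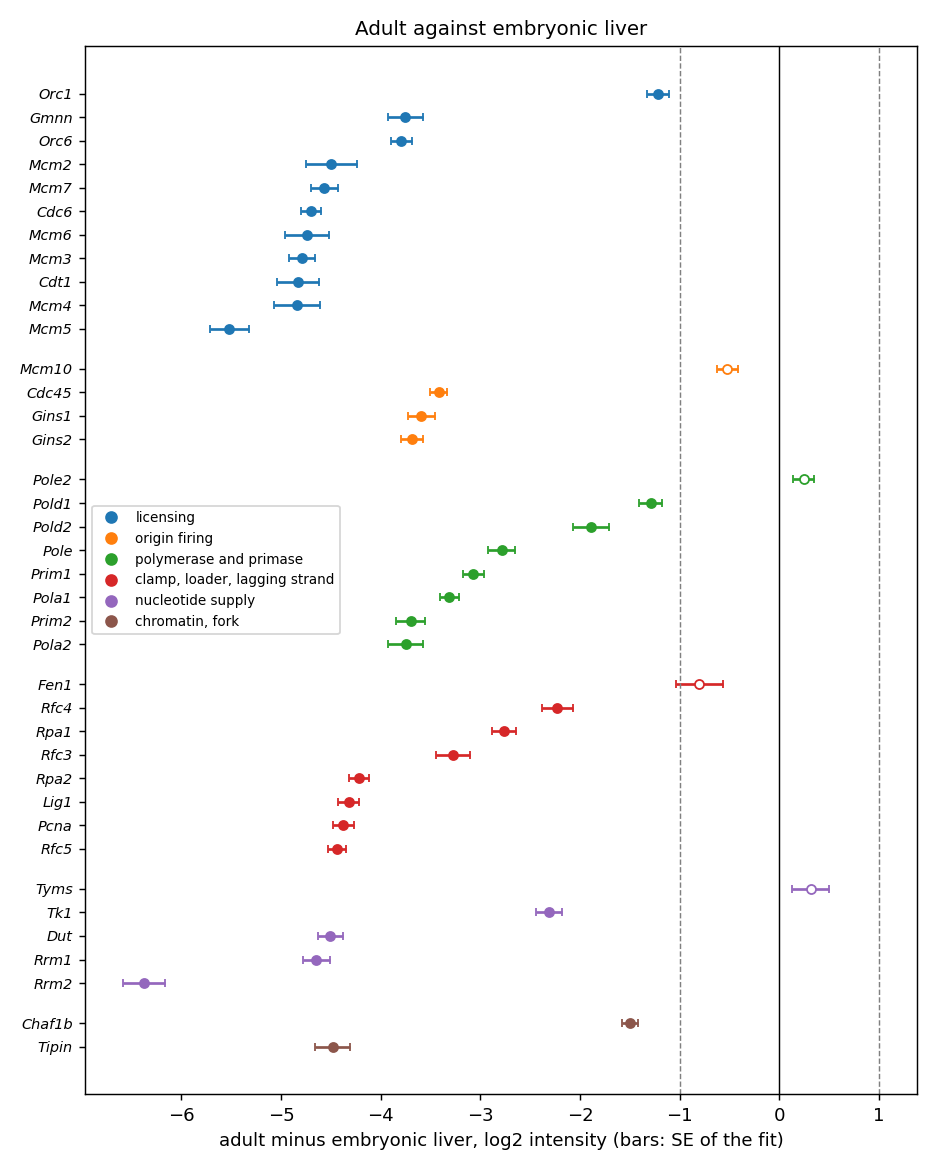
Each point is 1 replication gene, coloured by role, at its adult minus embryonic liver difference in log2 intensity, with the SE of the fit as a bar, called genes filled and dashed lines at 1 log2. All called points lie to the left of -1, and the open points are Mcm10, Pole2, Fen1 and Tyms.

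The third comparison set embryonic liver against the rest of the embryo at the 4 stages that both had. Its sign depended on how the 2 forms of arrays were brought to a common scale. On the deposited values 1 of 38 members was called higher in liver, Tyms, and 8 lower, against 14% and 51.2% of all tested genes. The median was -0.65 log2, against -1.04 for all genes. After centring each array on its median, 2 members were higher and 2 lower (median -0.26, all genes -0.64). After quantile normalization 3 were higher and 0 lower (median 0.45, all genes -0.13). After an intensity-dependent shift, chosen after the data were seen, 5 were higher and 0 lower (median 0.59, all genes -0.01). The direction of the average tissue difference was therefore not settled, and the values that follow are as deposited. Of the 38 members 3 were above 0 as deposited, 8 after median centring, 32 after quantile normalization and 35 after the shift. Of the 11 genes below 0 whose values follow, 3 turned above 0 after median centring, 6 after quantile normalization and 8 after the shift, all but Orc6, Pole and Chaf1b. Cdc6, for example, turned to 1.07 log2 after quantile normalization and 1.30 after the shift.

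Orc6 read 305 and 381 at 10.5, 408 and 379.5 at 11.5, 329 and 356 at 12.5 and 365 and 347 at 14.5 dpc in liver, against 1248, 1073, 1026 and 780.1 in the rest of the embryo. The rest of the embryo was higher at every stage (-1.51 log2, SE 0.12, limma adjusted p = 5.04e-07). Cdc6 read 288 and 325 at 10.5, 648 and 539.6 at 11.5, 717 and 638 at 12.5 and 926 and 848 at 14.5 dpc in liver, against 934, 546, 520.2 and 438 in the rest of the embryo. The order of the tissues turned round with stage and the average difference was near 0 (-0.03 log2, SE 0.31, limma adjusted p = 0.941).

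Gins1 read 322 and 311 at 10.5, 336 and 361 at 11.5, 395 and 346 at 12.5 and 449 and 431 at 14.5 dpc in liver, against 1140.4, 1029, 882 and 540.3 in the rest of the embryo (-1.24 log2, SE 0.20, limma adjusted p = 0.000137). The mean over the probe sets of Gins1 was -0.87 log2, under the size minimum. Mcm10 read 189 and 247 at 10.5, 295 and 263 at 11.5, 305 and 322 at 12.5 and 364 and 359 at 14.5 dpc in liver, against 519, 339, 290.1 and 242 in the rest of the embryo. For Mcm10, liver was lower at 10.5 dpc and higher at 14.5 dpc (-0.21 log2, SE 0.23, limma adjusted p = 0.4).

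Pole read 134.9 and 141 at 10.5, 177 and 133 at 11.5, 175 and 151 at 12.5 and 195 and 199 at 14.5 dpc in liver, against 778, 508, 519 and 527 in the rest of the embryo, lower in liver on every array (-1.83 log2, SE 0.16, limma adjusted p = 1.31e-06). Pold1 read 259.8 and 274 at 10.5, 345 and 325 at 11.5, 371 and 415 at 12.5 and 378 and 389 at 14.5 dpc in liver, against 669.8, 436, 482 and 378 in the rest of the embryo. The tissues were well apart at 10.5 dpc and even at 14.5 dpc (-0.50 log2, SE 0.18, limma adjusted p = 0.0216).

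Rfc5 read 407 and 467 at 10.5, 582 and 598 at 11.5, 567 and 506 at 12.5 and 559.8 and 533 at 14.5 dpc in liver, against 1583, 1309, 1225 and 1075 in the rest of the embryo, lower in liver throughout (-1.29 log2, SE 0.13, limma adjusted p = 2.93e-06). Pcna read 3597 and 3619.8 at 10.5, 4386 and 4422 at 11.5, 5466 and 5347 at 12.5 and 5669 and 5653 at 14.5 dpc in liver, against 8039, 7278, 6627 and 5139 in the rest of the embryo. Pcna was lower in liver at the first 3 stages and higher at 14.5 dpc (-0.51 log2, SE 0.15, limma adjusted p = 0.00983).

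Tyms read 104 and 110.5 at 10.5, 88.2 and 83.5 at 11.5, 79.1 and 111 at 12.5 and 88.2 and 92.9 at 14.5 dpc in liver, against 8.59, 11.3, 14.1 and 9.58 in the rest of the embryo, where all 4 arrays were under the floor (1.92 log2, SE 0.13, limma adjusted p = 1.91e-07). Another probe set of Tyms ran the opposite way, with 28.1 to 54.4 in liver at these stages against 160.4 to 232 in the rest of the embryo, and with the mean over probe sets 0 members were called higher and 7 lower. Tk1 read 332 and 488 at 10.5, 711 and 649 at 11.5, 798 and 665 at 12.5 and 879 and 849.9 at 14.5 dpc in liver, against 769.5, 622, 667 and 797 in the rest of the embryo. The tissues were close from 11.5 dpc on (-0.14 log2, SE 0.18, limma adjusted p = 0.471).

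Chaf1b read 291 and 294 at 10.5, 271 and 289.5 at 11.5, 289 and 299 at 12.5 and 304 and 284 at 14.5 dpc in liver, against 865, 780.3, 761 and 561 in the rest of the embryo, lower in liver at every stage (-1.34 log2, SE 0.11, limma adjusted p = 6.21e-07). The mean over its probe sets was -0.32 log2 and not called. Tipin read 666 and 803 at 10.5, 1078 and 1215 at 11.5, 1344 and 1205 at 12.5 and 1334 and 1374 at 14.5 dpc in liver, against 2037, 1768, 1843 and 1293 in the rest of the embryo. Its gap closed by 14.5 dpc (-0.64 log2, SE 0.19, limma adjusted p = 0.00766). The other members called lower in liver were Pold2, Prim1 and Rfc3. Without the rest-of-embryo array of 14.5 dpc 1 member was higher and 15 lower, 16 in all, and for 14 of 22 genes with several tested probe sets the probe sets agreed in sign. A second probe set of Prim1 read -416 and -399 in liver at 10.5 dpc, against 1536 in the rest of the embryo.

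The last comparison asked whether the tissue difference changed with stage. An offset between the sets of arrays drops out here if it is the same at every stage, but not if it changes with stage. The median intensity of the rest-of-embryo array was 93.4 at 10.5 dpc and 107 at 14.5 dpc. Of the 38 changes per day, 37 were positive after median centring and 36 after quantile normalization. The replication genes gained on the rest of the embryo in liver day by day: by limma 23 of 38 rose in liver relative to the rest of the embryo and 0 fell, at an adjusted p under 0.05 and at least 0.25 log2 per day. Of all tested genes 6.00% were called higher and 10.1% lower. The median slope was 0.28 log2 per day, against -0.03 for all genes, and 36 of 38 slopes were positive.

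The steepest slopes were those of Cdc6 (0.58 log2 per day, SE 0.11, limma adjusted p = 0.00699), Rrm2 (0.51 log2 per day, SE 0.04, limma adjusted p = 0.000336) and Cdc45 (0.47 log2 per day, SE 0.06, limma adjusted p = 0.00151). Rrm2 read 1990.2 and 2001 at 10.5, 2297 and 2444 at 11.5, 3568 and 3240.3 at 12.5 and 3643 and 3426 at 14.5 dpc in liver, against 5588, 4528, 3881 and 2419.9 in the rest of the embryo, so that liver passed the rest of the embryo between 12.5 and 14.5 dpc on the deposited scale. Cdc45 read 191 and 176 at 10.5, 219.9 and 213 at 11.5, 257 and 277 at 12.5 and 322 and 326 at 14.5 dpc in liver, against 483, 343, 314 and 222 in the rest of the embryo, with the same crossing. Licensing had 9 of 11 genes called, all but Mcm6 and Orc6, and origin firing 3 of 4, all but Gins2. Mcm6 missed the size minimum at 0.25 log2 per day (limma adjusted p = 0.00282).

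Polymerase and primase had 3 of 8 genes called, Prim2 at 0.44, Pold1 at 0.29 and Prim1 at 0.28 log2 per day. Clamp, loader and lagging strand had 4 of 8, Lig1 at 0.34, Pcna at 0.32, Rfc4 at 0.32 and Rpa1 at 0.26. Nucleotide supply had 3 of 5, Rrm2, Rrm1 and Dut, and the last group 1 of 2, Tipin. The flattest were Pold2 at -0.01 and Tyms at -0.04 log2 per day, both not called. Probe sets agreed in sign for 21 of 22 genes with several, Tyms being split.

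The tissues moved in opposite directions. In liver 32 of 38 members had both arrays of 14.5 dpc above both of 10.5 dpc, a count not taken over all genes. The median difference in liver was 0.57 log2, against -0.01 for all tested genes. By the mean of each stage 4 of 38 members were lower in liver at 14.5 dpc, against 50.6% of all tested genes. In the rest of the embryo, with 1 array a stage and no test, 36 of 38 were lower at 14.5 than at 10.5 dpc. Of all tested genes 41.4% were lower there. The median in the rest of the embryo was -0.67 log2, against 0.06 for all genes. The exceptions there were Tk1 and Tyms. Both movements together held for 31 of 38 members, against 12.2% of all tested genes.

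The median liver minus rest difference was -1.41 log2 at 10.5 dpc, -0.67 at 11.5, -0.53 at 12.5 and -0.07 at 14.5 dpc on the deposited values. After quantile normalization it was -0.29, 0.46, 0.65 and 1.09 at the same stages. The count of 23 was 27 after median centring, 21 after quantile normalization and 19 with the mean over probe sets. It was 8 without the rest-of-embryo array of 10.5 dpc and 16 without that of 14.5 dpc, and each of these stages is a single array of the rest of the embryo. In the rest of the embryo summed mesenchyme markers were 37141 at 14.5 dpc, against 14845 at 10.5 dpc, and summed neural markers 16227 at 14.5 dpc, against 17769 at 10.5 dpc. In liver red cell markers were 26514 to 27839 at 14.5 dpc, against 2927 to 3124 at 10.5 dpc. Their part in the slopes was not tested.

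**Figure D4:**
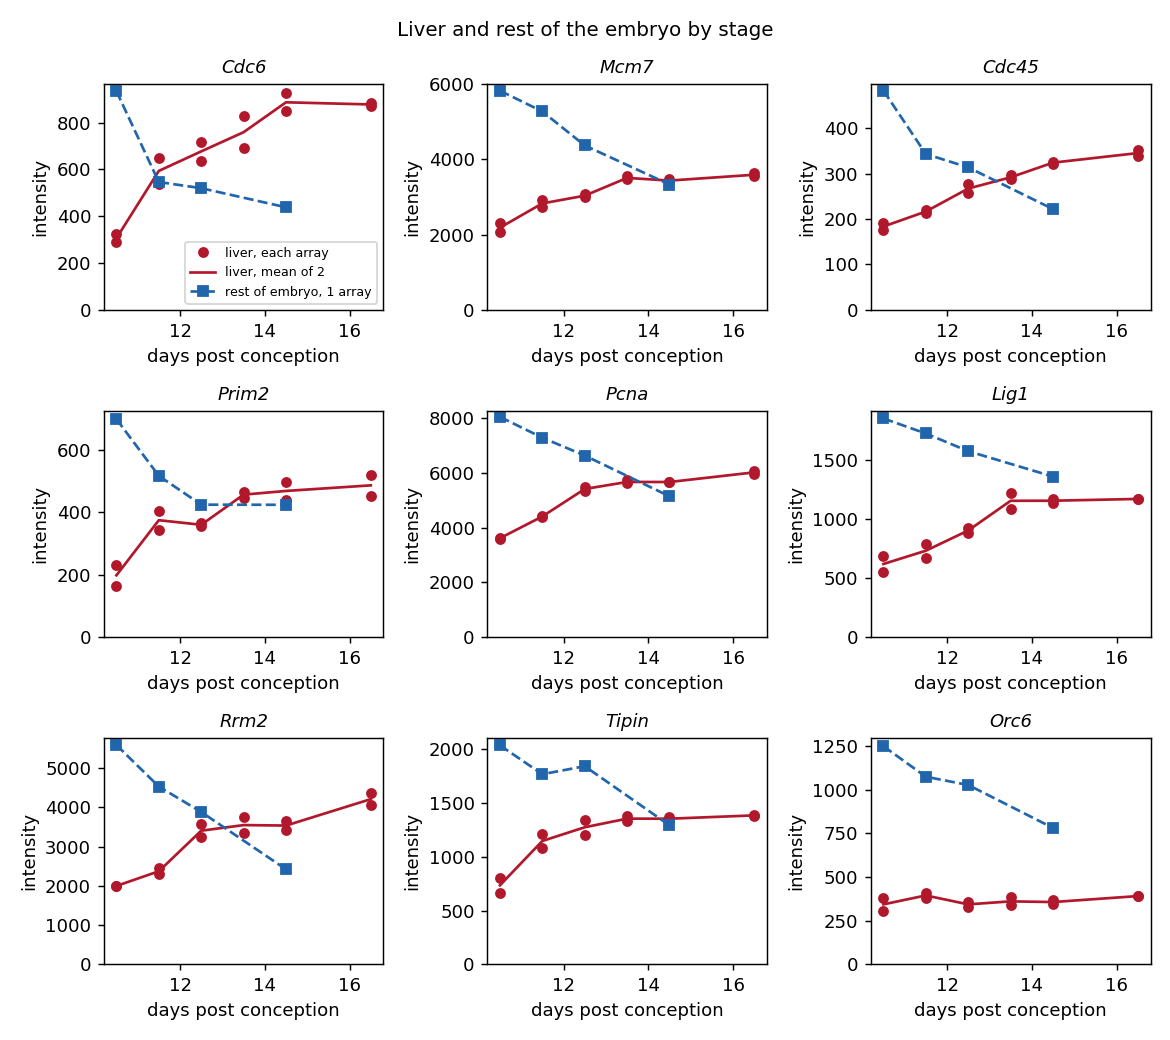
Each panel is 1 gene, with intensity as deposited against days post conception, in red for liver arrays and in blue for the single arrays of the rest of the embryo. Cdc6, Mcm7, Cdc45, Prim2, Pcna, Rrm2 and Tipin cross by 14.5 dpc, Lig1 draws nearer without crossing and Orc6 stays apart. The height of either tissue against the other depends on the scaling.

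**Figure D5:**
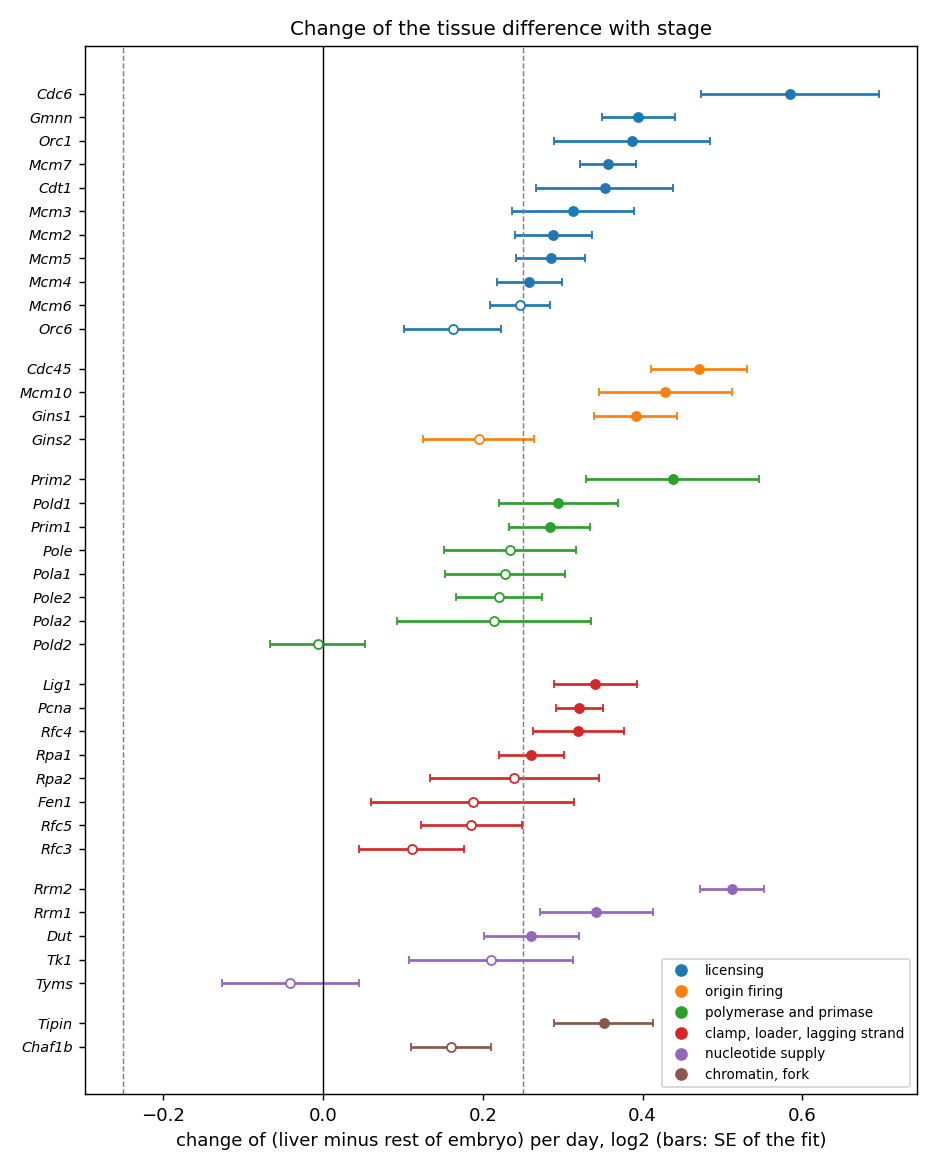
Each point is the change per day of the liver minus rest of embryo difference of 1 replication gene, in log2, with the SE of the fit as a bar, called genes filled and dashed lines at 0.25 log2 per day. All 23 filled points lie to the right of the line.

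A wider list of 46 other replication genes, 45 of them tested, was counted alongside. From 10.5 to 16.5 dpc 4 of 45 rose and 0 fell, against 10.4% and 6.98% of all tested genes, so the share that rose was near that of all genes. Asf1b, a histone chaperone, read 1005 and 1007 at 16.5 dpc, against 355 and 365 at 10.5 dpc (1.48 log2), and Dck, deoxycytidine kinase, rose by 1.36 log2 and Orc5 by 1.10. In adult liver 36 of 45 fell and 1 rose, against 23.7% and 11.9% of all genes, with Top2a, topoisomerase II alpha, at -6.24, Uhrf1, which helps to copy DNA methylation, at -5.41 and Asf1b at -4.84 log2. The gene that rose was Shmt1, a folate enzyme also of general one-carbon metabolism, at 1.05 log2. By the slope of the tissue difference 12 of 45 were called higher and 0 lower, against 6.00% and 10.1% of all genes, with Dck at 0.52 and Clspn, claspin, at 0.40 log2 per day.

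Regulators of the entry into S phase made up a list of 20 genes. From 10.5 to 16.5 dpc 6 of 20 rose and 1 fell, against 10.4% and 6.98% of all tested genes. E2f2, an E2F transcription factor, read 1882 and 2007 at 16.5 dpc, against 68.5 and 135.4 at 10.5 dpc (4.33 log2, SE 0.30, limma adjusted p = 1.94e-06). Rb1, the retinoblastoma protein that restrains E2F factors, read 1335 and 1392 at 16.5 dpc, against 108 and 121 at 10.5 dpc (3.58 log2). Mycn, a growth-promoting transcription factor, read 65.7 and 72.4 at 16.5 dpc, against 552 and 589 at 10.5 dpc and fell (-3.05 log2).

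For these 3 regulators the arrays of 16.5 and 10.5 dpc did not overlap, and their differences were larger than the 1.52 log2 of Cdc6. In adult liver 14 of the 20 fell and 0 rose, against 23.7% and 11.9% of all genes, Ccna2, cyclin A2, the most at -6.17 log2. The slope of the tissue difference was 1.01 log2 per day for E2f2 and 0.61 for Rb1, among 6 called higher and 0 lower of 20, against 6.00% and 10.1% of all genes.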

How the data were processed

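Total RNA of 18 samples was hybridised as biotin-labelled cRNA to 1-colour Affymetrix arrays, per the labels' protocols, and the authors deposited 1 intensity per probe set and array on a linear scale. The sources used here do not state how the intensity values were scaled, and the liver and rest-of-embryo values have different forms. The number of arrays limits the precision.

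The 64 control probe sets were left out, and 34945 probe sets with 1 gene symbol were kept, each gene being read on its brightest. Values under 24.8, the 20th percentile and the floor, were set to it. All values were log2 transformed without further scaling, and genes were kept where at least 2 arrays reached 78.0, the 50th percentile. limma 3.58.1 in R 4.3.3 (lmFit, eBayes with an intensity trend) was fitted to 14 liver arrays, 14125 genes, and to liver and rest-of-embryo arrays of shared stages, 14895 genes, with Benjamini-Hochberg adjustment over all of them. The scripts were tested on simulated data.

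All members may be named. Values on every array are given for the member of each role with the largest and with the smallest absolute difference in a comparison, and up to 3 called genes per direction are named of each other list. Promoters printed belong to the 4 members with the largest adult difference among those with an E2F-like motif in the bases before the start. Cdt1 and Mcm3 also rank among them by difference, but their motifs lie after the start, in a stretch that is not printed. The members and lists were chosen with earlier results of these data known. Alternatives changed the floor, filter, scaling, probe set rule, trend, block and arrays included.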

Additional observations from a re-analysis of the deposited data

Results flagged for a closer look

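The difference between liver and the rest of the embryo changed with stage by limma's test of that change for 23 of the 38 replication genes, which is what put them here. By the same rule 6.00% of all tested genes were called higher and 10.1% lower. The count of members depended on single arrays of the rest of the embryo. Each value is the change of the liver minus rest difference in log2 per day, and all are positive. In licensing they were 0.58 for Cdc6, 0.39 for Gmnn, 0.39 for Orc1, 0.36 for Mcm7, 0.35 for Cdt1, 0.31 for Mcm3, 0.29 for Mcm2, 0.285 for Mcm5 and 0.26 for Mcm4. In origin firing they were 0.47 for Cdc45, 0.43 for Mcm10 and 0.39 for Gins1. Prim2 had 0.44, Pold1 0.29 and Prim1 0.28. Lig1 had 0.34, Pcna 0.32, Rfc4 0.32 and Rpa1 0.26. In nucleotide supply they were 0.51 for Rrm2, 0.34 for Rrm1 and 0.26 for Dut, and Tipin had 0.35. The rest of the embryo had 1 array a stage, so its own spread at a stage was not measured.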

How the results depend on the processing

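The 34 members called lower in adult than in embryonic liver stayed at 34 in every fit that left out 1 array. For 16.5 against 10.5 dpc the count ranged from 4 to 8 over such fits, and 8 came without replicate 2 of 10.5 dpc. For 16.5 against 11.5 dpc the mean over probe sets gave 1 call in place of 0. For 11.5 against 10.5 dpc quantile normalization gave 2, and leaving out 1 array gave 0 to 5. The test over embryonic stages, 17, became 11 after quantile normalization, 4 without the arrays of 10.5 and 12.5 dpc, 28 with the 12 embryonic liver arrays alone, and 10 to 28 over fits without 1 array. For liver against the rest of the embryo, 9 calls became 4 after median centring, 3 after quantile normalization, 5 after the intensity-dependent shift, and 8 to 16 without 1 array. There 3 of 38 members were above 0 as deposited, 32 after quantile normalization and 35 after the shift. Of the 11 named genes below 0, 6 and 8 turned: Cdc6 to 1.07 log2 (quantile) and 1.30 (shift), Gins1, Rfc5 and Tk1 to 0.0667, 0.0418 and 1.19 (shift), and Mcm10, Pold1, Pcna and Tipin also. For the change by day 23 became 8 to 27 without 1 array. The cause was not tested. The embryonic liver fit and the intensity-dependent shift were chosen after seeing the data. Replicate numbers were not taken to pair the samples: over 21 pairs of arrays the deviations correlated at -0.354 to 0.254, and 5 were over 0.1. With the replicate number as a block the stage test called 13, the tissue difference 10 and the change by day 23. For most of these alternatives the share of all genes called is not given here. Their counts therefore show how the calls depended on the fit and are not results about the members alone. Single arrays of the rest of the embryo, values at the floor in adult liver and the unstated scaling limit what these arrays can show.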
